A study of Homo sapiens with 15 samples.

Results

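Messenger RNA of 10 genes was followed in A375 cells, a BRAF-mutant line established from a human melanoma. The genes were fixed by name with earlier results of these data known, so counts and medians over them are a description only. In the set are the interleukin-6 family cytokines IL6, IL11 and LIF, the cytokines IL1B and IL24, and the chemokines CXCL1, CXCL2 and CCL2. It also holds the NF-kB feedback inhibitors TNFAIP3 and NFKBIA. These genes are 10 of 16768 gene symbols listed for 9 libraries of cells given vehicle or saracatinib. Of the 10, 9 are among the 16295 symbols listed for 6 libraries of untreated cells. IL6 is the member not listed in the untreated libraries. The 9 libraries came from empty vector cells given vehicle, from cells overexpressing VAV1 given vehicle, and from cells overexpressing VAV1 given saracatinib, an inhibitor of SRC family kinases, with 3 libraries each. The other 6 came from untreated empty vector cells and untreated cells overexpressing RAC1 P29S, again 3 each. All cells grew in DMEM with 10% fetal bovine serum and antibiotics. VAV1 is an exchange factor that loads RAC1 and related GTPases with GTP, and RAC1 P29S is a mutant, found repeatedly in melanomas, that exchanges its nucleotide fast and so stays active. The series title concerns resistance to MAPK pathway inhibition, but no sample label names a MAPK pathway inhibitor. The labels give no dose or time for saracatinib, no group joins the empty vector with saracatinib, and whether a line is 1 clone, or which promoter drove a transgene, is not given in the sources used here.

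NF-kB factors are held in the cytoplasm by inhibitor proteins of the IkB family until upstream kinases mark those inhibitors for destruction, and the freed factors then switch on genes for cytokines, chemokines and their own inhibitors. NFKBIA encodes IkB-alpha, an inhibitor that is quickly rebuilt, and TNFAIP3 encodes A20, which edits ubiquitin chains and shuts the upstream kinases off. IL1B feeds the pathway from outside the cell, IL6, IL11 and LIF act through receptors that share the IL6ST (gp130) subunit and turn on STAT3, and CXCL1 and CXCL2 attract neutrophils whereas CCL2 attracts monocytes. IL24, also known as MDA-7, was first found in differentiating melanoma cells and belongs to the interleukin-10 family.

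Promoter sequences from RefSeq (GRCh38.p14) were matched for 8 of the 10 genes, and LIF and CCL2 had none. Within the 250 bases before the start site, the letters GGGNNNTTCC, a core of the site bound by NF-kB, were found on either strand in 5 of these 8 promoters (CXCL1, CXCL2, IL6, TNFAIP3 and NFKBIA), against 1992 of 35116 promoters (5.67%). The letters TGANTCA, the core of the AP-1 site, were found in 1 of the 8 (IL11), against 2308 promoters (6.57%). Matches of the 2 motifs overlapped in none of the printed windows. The 8 windows below, with CXCL3 added because its transcript moved apart from CXCL1 and CXCL2, show which genes carry these letters. Each runs 5′ to 3′ from base -120 to base -21 before the RefSeq start of the gene, with the matched letters in capitals.
CXCL1, chr4:73869273-73869372, forward strand: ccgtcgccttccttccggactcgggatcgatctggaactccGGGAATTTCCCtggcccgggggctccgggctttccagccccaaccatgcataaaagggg
CXCL2, chr4:74099216-74099315, reverse strand: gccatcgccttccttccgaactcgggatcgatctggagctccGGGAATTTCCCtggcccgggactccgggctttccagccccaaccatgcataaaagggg
CXCL3, chr4:74038710-74038809, reverse strand: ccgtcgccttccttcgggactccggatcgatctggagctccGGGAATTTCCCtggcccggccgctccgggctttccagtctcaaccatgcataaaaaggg
IL6, chr7:22727080-22727179, forward strand: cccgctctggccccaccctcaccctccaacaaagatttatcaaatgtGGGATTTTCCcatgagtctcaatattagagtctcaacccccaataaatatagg
TNFAIP3, chr6:137867139-137867238, forward strand: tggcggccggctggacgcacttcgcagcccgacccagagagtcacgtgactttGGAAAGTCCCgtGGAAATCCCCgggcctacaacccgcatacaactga
NFKBIA, chr14:35404770-35404869, reverse strand: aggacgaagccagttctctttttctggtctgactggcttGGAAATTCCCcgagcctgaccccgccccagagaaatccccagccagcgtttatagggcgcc
IL11, chr19:55370484-55370583, reverse strand: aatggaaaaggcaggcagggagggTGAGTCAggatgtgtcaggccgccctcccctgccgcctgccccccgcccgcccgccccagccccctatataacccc
IL24, chr1:206897323-206897422, forward strand: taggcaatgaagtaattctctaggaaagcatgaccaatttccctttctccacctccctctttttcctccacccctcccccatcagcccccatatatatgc
IL1B, chr2:112836800-112836899, reverse strand: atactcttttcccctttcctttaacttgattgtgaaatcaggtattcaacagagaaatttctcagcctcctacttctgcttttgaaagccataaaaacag
The same run of capitals stands in CXCL1, CXCL2 and CXCL3, where a forward and a reverse match overlap, and TNFAIP3 carries a pair of separate matches. IL24 and IL1B have no capitals, which says only that these letters are not in this window. The chemokine CXCL8, whose transcript fell with both constructs as that of CXCL3 did, is not printed. Its 250 bases held 0 matches of GGGNNNTTCC and 1 of TGANTCA, at bases -137 to -131. GENCODE 29 draws the genes CXCL2, IL1B, IL6 and TNFAIP3 with starts further upstream than RefSeq does, so their windows lie wholly or partly inside the GENCODE gene. A match is a description of the letters and was not tested for binding. The genes were chosen as cytokines, chemokines and NF-kB feedback inhibitors, so their share with a match is not independent of that choice. Nothing is read from it.

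Values are log2 of the authors' normalized count plus 1, and levels are compared within a gene only. Each library summed to 14443918 to 16262759 normalized counts. VAV1 lay between 1.90 and 2.49 in the empty vector vehicle libraries and between 13.86 and 14.16 in the 6 VAV1 libraries. RAC1 lay between 11.87 and 11.90 in the untreated empty vector libraries and between 14.89 and 14.95 in those titled RAC1 P29S. The titles and the RAC1 level separate those 6 libraries the same way, although the genotype field gives the empty vector for all 6. Summed melanocyte lineage markers, led by SOX10, were 8995 to 9515 normalized counts in empty vector vehicle cells, 2998 to 3133 with VAV1, 3589 to 3731 with VAV1 and saracatinib, 11230 to 12250 in untreated empty vector cells and 5407 to 5815 with RAC1 P29S. PMEL, a defining marker, was low in all 5 groups, with group means of 4.19 to 5.25, and MLANA had group means of 1.90 to 3.67. MITF, the lineage transcription factor, moved against SOX10: it rose by 1.57 ± 0.11 with VAV1 and by 1.23 ± 0.11 with RAC1 P29S, and fell by 1.09 ± 0.11 with saracatinib. Summed leukocyte markers, of which 7 and 4 of 10 were listed, were 230.6 to 282.8, 72.48 to 85.69, 111.2 to 122.7, 115.9 to 122.4 and 76.19 to 94.4 in the same order of groups. CD3E, FCGR3A and AIF1 are not listed, LYZ supplied most of that sum, and the leukocyte marker PTPRC had group means of 2.32 to 2.74. The part of these marker levels in the results below was not tested. In bulk RNA, fewer cells that make a transcript and less transcript per cell cannot be told apart.

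**Figure D1:**
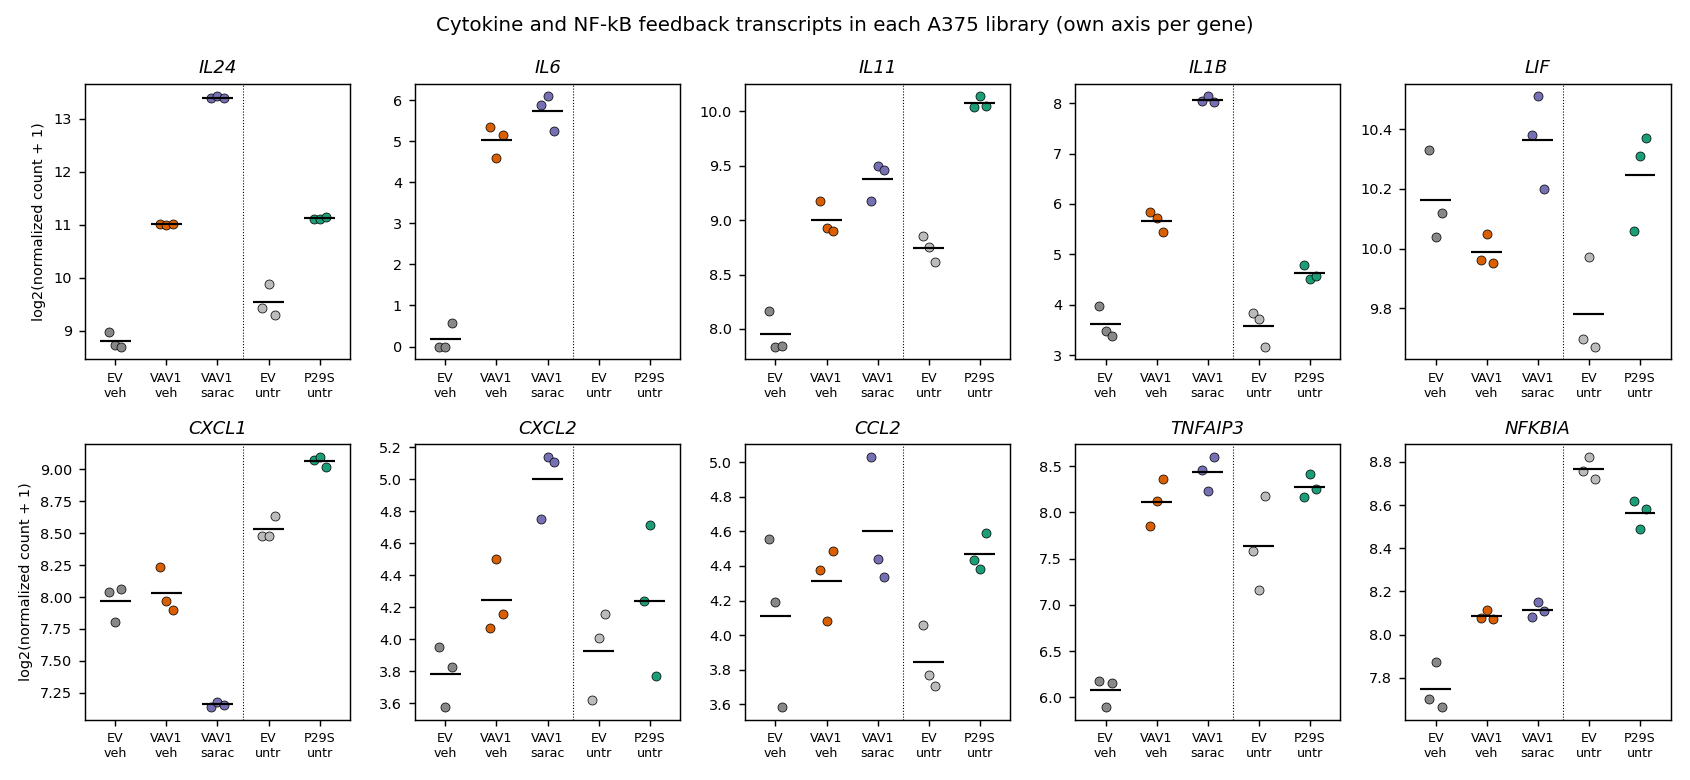
Level of each of the 10 genes in every library, as log2(normalized count + 1) on an axis of its own. Points are libraries and bars are group means; the dotted line separates the 2 experiments, which were normalized separately. IL24 and IL1B form 3 separate steps across the vehicle and saracatinib groups, while CXCL1 is lowest in the saracatinib libraries, at 7.14 to 7.18.

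With VAV1, 6 of the 10 genes were higher than in empty vector cells, none was lower and 4 were not called, at an adjusted p under 0.05 from limma over all 14410 tested genes. In the same comparison 23.6% of all tested genes were called higher and 20.1% lower. The median difference was 0.75 over the 10 genes and 0.02 over all tested genes. The 6 genes were IL24, IL6, IL11, IL1B, TNFAIP3 and NFKBIA, that is 4 cytokines and both feedback inhibitors, and no chemokine. All 10 genes passed the filter on low values (10 normalized counts in at least 3 libraries), IL6 only through libraries with VAV1. In the empty vector libraries of both experiments IL1B lay near that limit, with a lowest count of 9.43 with vehicle and of 8 untreated. IL1B therefore also needed libraries with a construct to pass in either experiment. Calls of IL6 and IL1B against the empty vector add nothing to their values, although both genes stand in the counts of called genes.

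IL24 stood at 8.98, 8.73 and 8.71 in the empty vector libraries and at 11.02, 11 and 11.01 in the VAV1 libraries. The groups did not overlap, and the VAV1 libraries lay within a narrow band. IL24 rose by 2.21 ± 0.06 (SE, n = 3 against 3; limma adjusted p = 1.36e-11), which is 4.62-fold on the log2(count + 1) scale, from a mean of 447.5 to 2062 normalized counts. The gene lies on the forward strand at chr1:206897443-206904139 (GRCh38, GENCODE 29).

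IL1B, the secreted activator of NF-kB, stood at 3.97, 3.47 and 3.38 in the empty vector libraries and at 5.83, 5.73 and 5.44 with VAV1. Every VAV1 library was above every empty vector library. IL1B rose by 2.06 ± 0.21 (SE, n = 3 against 3), from a mean of 11.42 to 50.18 normalized counts. It needed libraries with VAV1, where it was high, to pass the filter on low values, so its call adds nothing to these values. A pseudocount of 16 lowered the difference to 1.27. IL1B lies on the reverse strand at chr2:112829751-112836903.

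IL6 was listed at 0 in the first and the second empty vector library and at 0.58 in the third, against 5.36, 4.6 and 5.14 with VAV1. The transcript was near the floor of the assay without VAV1 and at 23.24 to 40 normalized counts with it. The difference was 4.84 ± 0.39 (SE), and no linear fold is given because of the zeros. IL6 passed the filter on low values only through the VAV1 libraries, where it was high, so its call adds nothing to these values. The size depended on the pseudocount, being 1.57 with a pseudocount of 16. IL6 lies on the forward strand at chr7:22725884-22732002.

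IL11 stood at 8.17, 7.84 and 7.84 in the empty vector libraries and at 9.17, 8.92 and 8.90 with VAV1, without overlap. It rose by 1.05 ± 0.12 (SE; limma adjusted p = 1.06e-05), or 2.07-fold. LIF, the third cytokine of the IL6ST group, was 10.33, 10.04 and 10.12 in the empty vector libraries and 9.96, 10.05 and 9.95 with VAV1. The LIF ranges overlapped, and the difference of -0.18 (95% interval -0.37 to 0.02; limma adjusted p = 0.127) was not called. IL11 lies at chr19:55364389-55370463 and LIF at chr22:30240447-30246851, both on the reverse strand.

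TNFAIP3 stood at 6.18, 5.89 and 6.16 in the empty vector libraries and at 7.85, 8.12 and 8.36 with VAV1. The gap between the groups was wider than the spread within either. TNFAIP3 rose by 2.04 ± 0.15 (SE; limma adjusted p = 1.49e-07), or 4.1-fold. NFKBIA stood at 7.70, 7.87 and 7.66 without VAV1 and at 8.08, 8.11 and 8.07 with it. NFKBIA also rose without overlap, by the smaller amount of 0.34 ± 0.10 (SE; limma adjusted p = 0.011), or 1.27-fold. TNFAIP3 lies on the forward strand at chr6:137867188-137883312 and NFKBIA on the reverse strand at chr14:35401511-35404749.

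None of the 3 chemokines was called with VAV1. CXCL1 was 8.04, 7.81 and 8.06 in the empty vector libraries and 8.23, 7.97 and 7.90 with VAV1, and the ranges overlapped (difference 0.06, 95% interval -0.20 to 0.32; limma adjusted p = 0.707). CXCL2 was 3.95, 3.57 and 3.83 against 4.07, 4.50 and 4.16. Its groups did not overlap, but the difference of 0.46 (95% interval -0.15 to 1.07) had a limma adjusted p of 0.212. CCL2 was 4.55, 4.19 and 3.58 against 4.38, 4.08 and 4.48, with overlap (difference 0.20, 95% interval -0.51 to 0.92; limma adjusted p = 0.655). CXCL2 and CCL2 had group means of 12.86 to 31.26 and 13.46 to 23.88 normalized counts, so their intervals were wide. CXCL1 lies on the forward strand at chr4:73869393-73871242, CXCL2 on the reverse strand at chr4:74097035-74099293 and CCL2 on the forward strand at chr17:34255218-34257203.

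**Figure D2:**
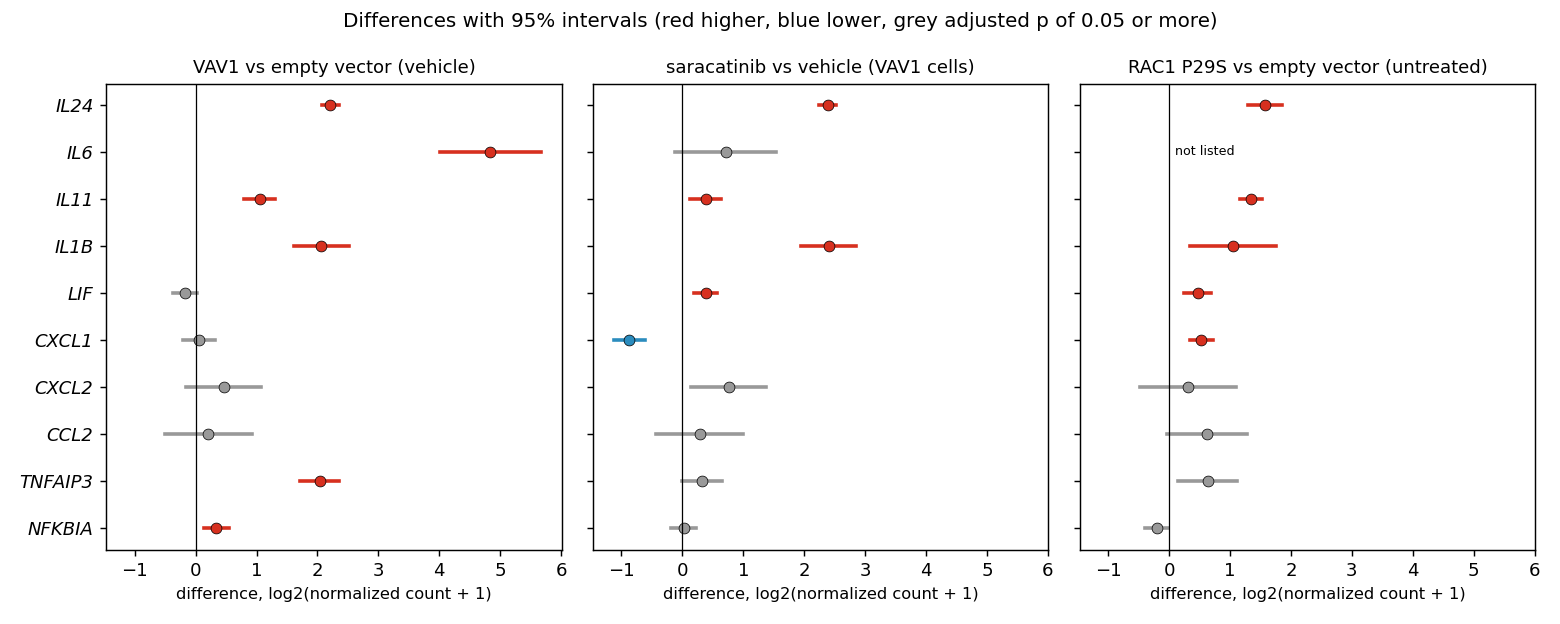
Difference between groups for each of the 10 genes in 3 comparisons, in log2(normalized count + 1), with 95% intervals. Red marks genes called higher, blue lower and grey not called; the VAV1 and the saracatinib panels share the VAV1 vehicle libraries. IL24 lies beyond 1.5 in all 3 panels, and CXCL1 is called lower with saracatinib and higher with RAC1 P29S.

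Saracatinib, added to VAV1 cells, moved the 10 genes in both directions: 4 were higher than with vehicle (IL24, IL1B, IL11 and LIF), 1 was lower (CXCL1) and 5 were not called. Over all genes 18.3% were called higher and 19.1% lower. The median was 0.38 over the 10 genes and -0.01 over all. This comparison shares the VAV1 vehicle libraries with the preceding one, so a chance deviation in those libraries enters both with opposite sign, and the values are given side by side only.

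IL24 stood at 13.39, 13.43 and 13.39 in the saracatinib libraries, above all VAV1 vehicle libraries. It rose by a further 2.39 ± 0.06 (SE; limma adjusted p = 5.51e-11), or 5.26-fold, to a mean of 10850 normalized counts. IL1B stood at 8.04, 8.14 and 8.03, also without overlap. It rose by a further 2.40 ± 0.21 (SE; limma adjusted p = 1.2e-06), or 5.29-fold, to 267.9 normalized counts. Neither gene came closer to its empty vector level when the inhibitor was present.

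IL11 was 9.18, 9.49 and 9.46 with saracatinib, the lowest of them just above the highest VAV1 vehicle library. It was higher by 0.38 ± 0.12 (SE; limma adjusted p = 0.0235). That call was lost when the second or the third library of either group was left out, with differences of 0.32 to 0.34 and adjusted p of 0.0779 to 0.0893. LIF was 10.38, 10.51 and 10.20 and rose by 0.38 ± 0.09 (SE; limma adjusted p = 0.00436), without overlap. IL6 was 5.87, 6.10 and 5.25, which overlapped the vehicle libraries (difference 0.71, 95% interval -0.12 to 1.54; limma adjusted p = 0.171).

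CXCL1 was 7.14, 7.18 and 7.16 with saracatinib, below every other library of that experiment. It fell by 0.88 ± 0.12 on the log2 scale (SE; limma adjusted p = 7.37e-05), a 1.84-fold lower value. CXCL2 went the other way in value, to 4.75, 5.14 and 5.11. Its libraries did not overlap with vehicle, and the difference of 0.76 ± 0.28 missed the threshold (limma adjusted p = 0.0511); it passed in 7 of 20 alternative analyses. CCL2 was 5.03, 4.44 and 4.34 and overlapped with vehicle (limma adjusted p = 0.531).

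Neither feedback inhibitor was called. TNFAIP3 was 8.46, 8.24 and 8.60 with saracatinib, overlapping with vehicle (difference 0.32, 95% interval 0 to 0.65; limma adjusted p = 0.113). NFKBIA was 8.08, 8.15 and 8.11, and its difference of 0.03 had a 95% interval of -0.18 to 0.23 (limma adjusted p = 0.864).

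Set against empty vector vehicle cells, VAV1 cells with saracatinib had 7 genes higher, 1 lower and 2 not called, where 22.4% of all tested genes were higher and 21% lower. The median was 1.32 over the 10 genes and 0 over all. IL24 was 24.3-fold higher (4.6 ± 0.06, limma adjusted p = 1.73e-14) and IL1B 22-fold higher (4.46 ± 0.21). The other 5 were IL6 (5.55), TNFAIP3 (2.36), IL11 (1.43), CXCL2 (1.22) and NFKBIA (0.37). IL6 passed the filter only through libraries with VAV1, where it was high, so its call adds nothing to its values. IL1B also needed such libraries to pass, so the same holds for its call. With a pseudocount of 16 the IL1B difference was 3.38, that of IL6 2.09 and that of CXCL2 0.71. CXCL1 was lower by -0.81 ± 0.12 (limma adjusted p = 0.000114). This comparison uses the same libraries as both preceding ones. It holds VAV1 and saracatinib together, and the part of each cannot be told apart in it without empty vector cells given the inhibitor.

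With RAC1 P29S, 5 of the 9 measured genes were higher than in untreated empty vector cells (IL24, IL11, IL1B, LIF and CXCL1), none was lower and 4 were not called. Over all 14036 tested genes 15.6% were higher and 15.5% lower. The median was 0.62 over the 9 genes and 0 over all.

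IL24 was 9.44, 9.88 and 9.31 in the untreated empty vector libraries and 11.12, 11.11 and 11.14 with RAC1 P29S. The groups were apart and the RAC1 P29S libraries close together. IL24 rose by 1.58 ± 0.12 (SE, n = 3 against 3; limma adjusted p = 1.06e-05), or 3-fold. IL11 was 8.86, 8.75 and 8.61 against 10.04, 10.14 and 10.05, and rose by 1.34 ± 0.08 (SE; limma adjusted p = 9.5e-07), or 2.52-fold.

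IL1B was 3.83, 3.72 and 3.17 against 4.79, 4.50 and 4.58, without overlap. It was higher by 1.05 ± 0.32 (SE; limma adjusted p = 0.0299), from 11.11 to 23.74 normalized counts, and by 0.55 with a pseudocount of 16. IL1B needed RAC1 P29S libraries, where it was high, to pass the filter on low values, so that call adds nothing to these values. The call was lost without the third empty vector library (0.85, adjusted p = 0.0755). It was also lost without any 1 of the 3 RAC1 P29S libraries (0.97 to 1.11, adjusted p of 0.0628 to 0.105). LIF was 9.70, 9.97 and 9.67 against 10.06, 10.31 and 10.37, and rose by 0.47 ± 0.10 (SE; limma adjusted p = 0.00631). CXCL1 was 8.48, 8.48 and 8.63 against 9.07, 9.10 and 9.02, and rose by 0.53 ± 0.08 (SE; limma adjusted p = 0.000772).

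TNFAIP3 was 7.59, 7.17 and 8.17 in the untreated empty vector libraries and 8.16, 8.41 and 8.26 with RAC1 P29S. The third empty vector library lay as high as the RAC1 P29S libraries, and the difference of 0.64 ± 0.22 missed the threshold (limma adjusted p = 0.0511). TNFAIP3 passed in 7 of 17 alternative analyses. Without the third empty vector library the difference was 0.90 (adjusted p = 0.00261), and without the second it was 0.40 (adjusted p = 0.125). NFKBIA was 8.76, 8.82 and 8.72 against 8.62, 8.49 and 8.58, lower in every RAC1 P29S library, but the difference of -0.20 was not called (limma adjusted p = 0.0918). CCL2 was 4.06, 3.77 and 3.71 against 4.44, 4.38 and 4.59. Its groups did not overlap either, and the difference of 0.62 was not called (limma adjusted p = 0.138). CXCL2 was 3.62, 4.01 and 4.16 against 4.24, 4.72 and 3.77, with overlap (difference 0.31; limma adjusted p = 0.543).

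The response to VAV1 was then set against the response to RAC1 P29S, each measured from its own empty vector libraries, in a limma fit over all 15 libraries and 13810 genes. The difference of the 2 responses was called for 6 of the 9 genes, 4 of them higher with VAV1 and 2 lower, while 8.14% of all tested genes were higher and 7.7% lower. The median was 0.15 over the 9 genes and 0.01 over all. VAV1 cells had received vehicle and RAC1 P29S cells had not, so construct, vehicle and experiment cannot be told apart here.

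The feedback inhibitors were among the 6. TNFAIP3 responded more to VAV1 by 1.40 ± 0.28 (limma adjusted p = 0.00268) and NFKBIA by 0.55 ± 0.12 (limma adjusted p = 0.00429). In the untreated empty vector libraries TNFAIP3 had a mean of 7.64 and NFKBIA of 8.77, against 6.08 and 7.75 in the empty vector vehicle libraries. Those levels were normalized separately and were not tested against each other, but they are the baselines from which both responses were taken.

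IL24 responded more to VAV1 by 0.62 ± 0.15 (limma adjusted p = 0.00943) and IL1B by 1.01 ± 0.33 (limma adjusted p = 0.0493). The IL1B call was lost in 19 of 25 alternative analyses, in which the difference was 0.72 to 1.21 and the adjusted p 0.019 to 1 over all 25. LIF and CXCL1 responded less to VAV1. The values were -0.64 ± 0.15 for LIF (limma adjusted p = 0.00641) and -0.47 ± 0.14 for CXCL1 (limma adjusted p = 0.0326). The CXCL1 call was lost in 10 of 26 alternatives, 9 of which left out 1 library: empty vector vehicle replicate 1 or 3, VAV1 vehicle replicate 2 or 3, untreated empty vector replicate 1 or 2, or any RAC1 P29S library. The IL11 responses of 1.05 and 1.34 differed by -0.29 (95% interval -0.61 to 0.04; limma adjusted p = 0.233), and neither CXCL2 nor CCL2 was called.

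**Figure D3:**
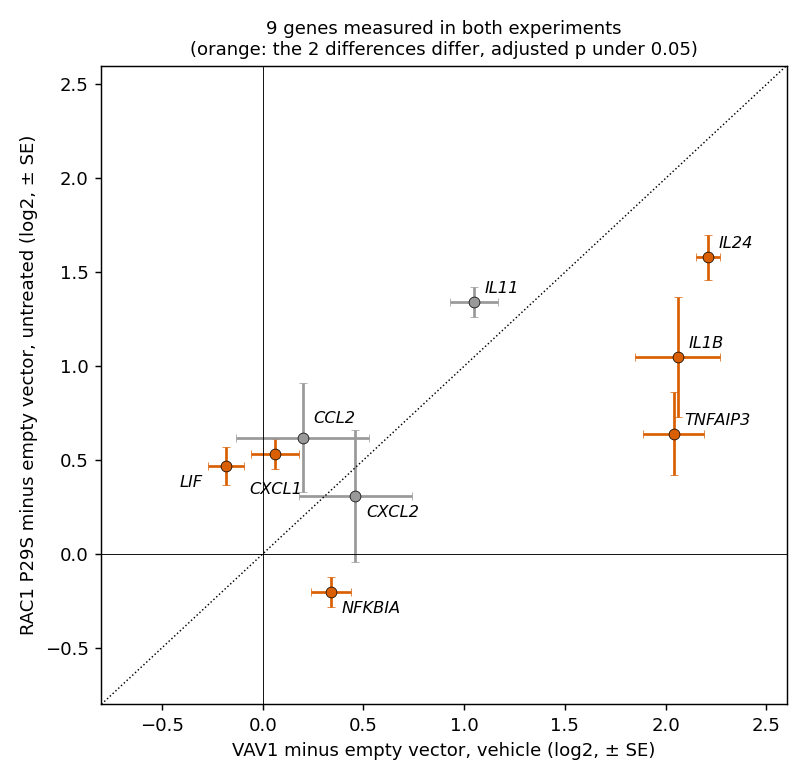
Response to VAV1 (horizontal) against response to RAC1 P29S (vertical) for the 9 genes measured in both experiments, each in log2 with its SE; the dotted diagonal marks equal responses. Orange genes have responses that differ at an adjusted p under 0.05. IL24, IL1B, TNFAIP3 and NFKBIA lie to the right of the diagonal, and LIF and CXCL1 to its left.

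CXCL1 and CXCL2 were read beside CXCL3, their close relative, and CXCL8, another chemokine that attracts neutrophils. CXCL1, CXCL2 and CXCL3 are similar in sequence, so the authors' read assignment could move reads among them and these 3 are less certain than the other genes. CXCL3 was 5.05, 5.41 and 4.70 in the empty vector vehicle libraries, 3.34, 3.17 and 4.19 with VAV1 and 4.30, 4.88 and 4.43 with VAV1 and saracatinib. CXCL3 fell by 1.49 ± 0.34 on the log2 scale with VAV1 (limma adjusted p = 0.00312) and rose by 0.98 ± 0.34 with saracatinib (limma adjusted p = 0.039). With RAC1 P29S it fell by 0.91 ± 0.24 (limma adjusted p = 0.0155), from 6.39, 6.44 and 5.84 to 5.01, 5.62 and 5.31.

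CXCL8 was 8.27, 8.64 and 8.33 without VAV1, 7.45, 7.22 and 7.34 with it and 7.43, 7.48 and 7.74 with saracatinib added. It fell by 1.08 ± 0.13 with VAV1 (limma adjusted p = 1.95e-05) and did not pass the test with saracatinib (difference 0.21; limma adjusted p = 0.223). With RAC1 P29S CXCL8 fell by 0.58 ± 0.10 (limma adjusted p = 0.00108). CXCL3 and CXCL8 were thus called lower under both constructs, whereas CXCL1 was called higher under RAC1 P29S and CXCL2 under neither.

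**Figure D4:**
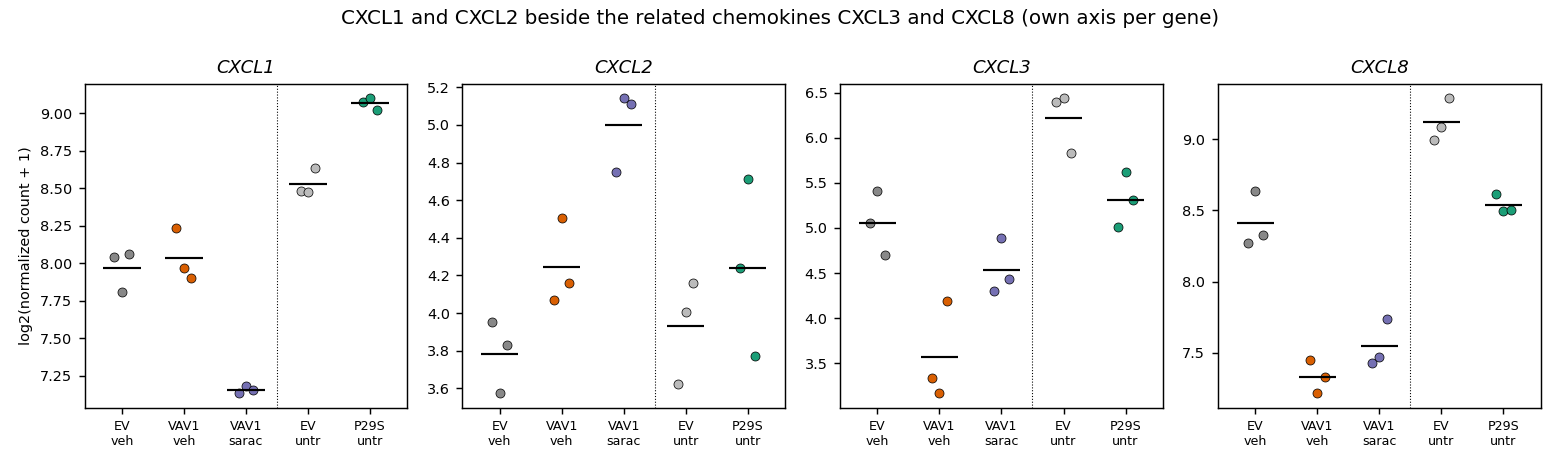
CXCL1, CXCL2, CXCL3 and CXCL8 in every library, as log2(normalized count + 1), with an axis for each gene; points are libraries, bars are group means and the dotted line separates the 2 experiments. CXCL3 and CXCL8 are lower in the VAV1 vehicle libraries than in every empty vector vehicle library, and CXCL1 is lowest with saracatinib.

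Across the 15 libraries, after the mean of each experiment's empty vector libraries was subtracted, IL24 and IL1B followed each other with Pearson r = 0.989. These points share their experiment's normalization and 5 group means, so r describes the group pattern and carries no p. Among 13809 other genes, the 3 most like IL24 were SLC37A2 (r = 0.992), FTH1, the ferritin heavy chain (0.989), and IL1B. The 3 most like IL1B were IL24, SLC37A2 (0.986) and NNMT, nicotinamide N-methyltransferase (0.985). SLC37A2 differed by 0.66 ± 0.08 with VAV1, by a further 0.75 ± 0.08 with saracatinib and by 0.46 ± 0.08 with RAC1 P29S. FTH1 differed by 1.16 ± 0.05, 0.82 ± 0.05 and 0.75 ± 0.05 in the same comparisons, so the likeness is of shape and not of size.

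TNFAIP3 was most like NMD3 (r = 0.986), ESF1 (0.976) and INO80C (0.972), all of smaller change. NMD3, a ribosome export adaptor, differed by 0.38 ± 0.05 with VAV1 and by 0.07 ± 0.05 with saracatinib. Within the 9 genes measured in all 15 libraries, TNFAIP3 had r = 0.889 with IL24 and 0.758 with NFKBIA. CXCL1 had r = -0.753 with NFKBIA, -0.702 with IL1B, -0.635 with IL24, -0.603 with CXCL2 and -0.534 with TNFAIP3. Its values were -0.135 with IL11, -0.0254 with CCL2 and 0.174 with LIF. LIF had r = 0.238 with IL24.

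The machinery around these genes was described from 7 lists of other pathway genes. Their counts stand against the shares called over all genes, which were 23.6% higher and 20.1% lower with VAV1, 18.3% and 19.1% with saracatinib, and 15.6% and 15.5% with RAC1 P29S. Several lists lie near these shares, and nothing is read from the counts beyond their number. Of 24 tested NF-kB subunits and activating kinases, 6 were higher and 4 lower with VAV1, 2 and 7 with saracatinib, and 5 and 4 with RAC1 P29S. RELA, the main activating subunit, differed by 0.03, -0.09 and 0.04 in these comparisons and was not called. NFKB1, the p105 precursor of p50, fell by 0.51 ± 0.06 with VAV1 (limma adjusted p = 1.15e-05) and by 0.29 ± 0.05 with RAC1 P29S (limma adjusted p = 0.00182). RELB fell by 0.63 ± 0.16 and 0.68 ± 0.13 in the same pair of comparisons.

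Among 16 other tested IkB family and feedback genes, 3 were higher and 2 lower with VAV1, 4 and 1 with saracatinib, and 5 and 2 with RAC1 P29S. TRAF1, an adaptor whose gene is a known NF-kB target, went opposite to TNFAIP3 with VAV1. TRAF1 fell by 2.22 ± 0.13 (limma adjusted p = 1.54e-08), rose by 1.84 ± 0.13 with saracatinib (limma adjusted p = 1.97e-07) and fell by 1.94 ± 0.10 with RAC1 P29S (limma adjusted p = 1.91e-07). BCL3, a nuclear IkB protein, fell by 0.71 ± 0.17 with VAV1 and rose by 1.25 ± 0.17 with saracatinib. TNFAIP2, another gene induced by TNF, rose by 0.89 ± 0.07 with VAV1 and by 0.93 ± 0.08 with RAC1 P29S.

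Of 43 other cytokines and chemokines, 20 could be tested in the vehicle and saracatinib libraries, where 6 were higher and 8 lower with VAV1, and 5 higher and 0 lower with saracatinib. With RAC1 P29S 7 were higher and 7 lower of 21 tested. IL18, like IL1B a cytokine of the interleukin-1 family, rose by 3.13 ± 0.17 with VAV1 (limma adjusted p = 8.79e-09) and by 2 ± 0.35 with RAC1 P29S. Its difference with saracatinib, 0.13 ± 0.17, was not called. IL1A, the sister gene of IL1B, fell by 1.72 ± 0.24 with VAV1 (limma adjusted p = 6.42e-05). Its differences of -0.45 with RAC1 P29S (limma adjusted p = 0.114) and 0.08 with saracatinib (limma adjusted p = 0.83) were not called. IL1A is named for that kinship and was chosen after its values were seen.

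IL32 rose by 3.01 ± 0.55 with VAV1 and by 2.87 ± 0.43 with RAC1 P29S. CSF2, which encodes GM-CSF, rose by 1.41 ± 0.33 and 2.30 ± 0.38. IL32 and CSF2 passed the filter only through libraries with a construct: their empty vector means were 1.86 and 7.03 normalized counts with vehicle and 3.38 and 6.62 untreated. The same holds for CCL3, and for IL18 in the untreated libraries. CSF1 rose by 0.93 ± 0.10 with VAV1 and by 1.26 ± 0.19 with RAC1 P29S. CCL3 was listed at 0 in all 6 empty vector libraries of both experiments, and its group means were 4.37 with VAV1, 4.61 with VAV1 and saracatinib and 4.68 with RAC1 P29S. CCL3 has near-identical copies in the genome, so its assignment is uncertain. TNF is not among the listed genes.

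Of 18 tested NF-kB induced effectors, 9 were higher and 6 lower with VAV1, and 3 and 3 with saracatinib, while with RAC1 P29S 7 were higher and 8 lower of 19. PTGS2, the inducible cyclooxygenase, rose by 1.72 ± 0.36 with VAV1 and by a further 1.17 ± 0.36 with saracatinib, the same order of steps as IL1B and IL24. With RAC1 P29S PTGS2 fell by 0.94 ± 0.24, and its responses to the 2 constructs differed by 2.66 ± 0.46 (limma adjusted p = 0.000814). In the empty vector vehicle libraries PTGS2 had a mean of 9.57 normalized counts and a range of 2.42 to 3.98. Among the vehicle and saracatinib libraries it passed the filter only through those with VAV1, so its call with VAV1 adds nothing to these values. The difference of 2.66 rests on the same low baseline. GADD45B, a stress response gene, rose by 1.84 ± 0.13 with VAV1 and fell by 0.82 ± 0.13 with saracatinib. VEGFC, a lymphatic growth factor, rose by 1.59 ± 0.07 with VAV1 and by 3 ± 0.12 with RAC1 P29S.

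**Figure D5:**
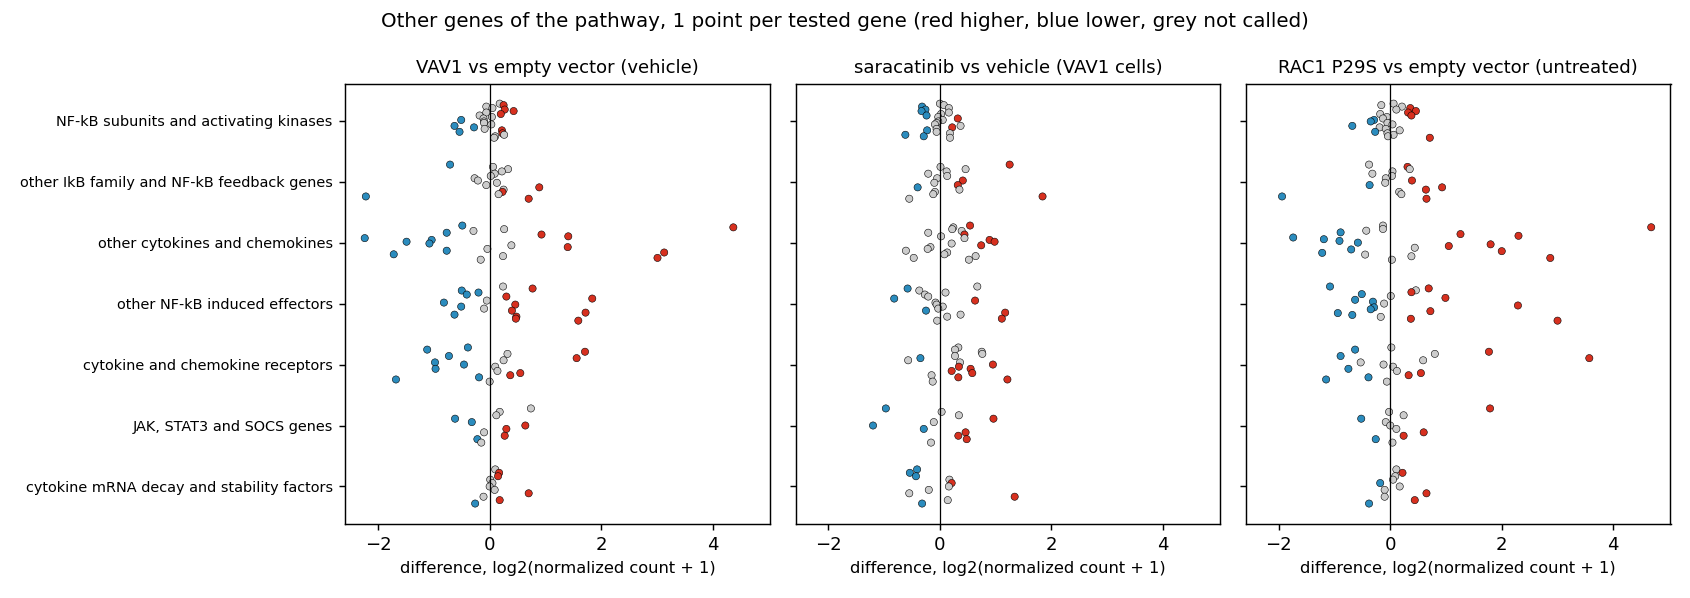
Differences in log2(normalized count + 1) for every tested gene of 7 pathway lists, 1 point per gene, in 3 comparisons. Red is called higher, blue lower and grey not called. Every list holds genes called in both directions with VAV1 and with RAC1 P29S, and among other cytokines and chemokines no gene is called lower with saracatinib.

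Receptors for these cytokines and for related ligands showed 4 higher and 8 lower of 17 tested with VAV1, 7 and 1 with saracatinib, and 4 and 5 with RAC1 P29S. The chemokine receptors CXCR1, CXCR2, CCR2 and ACKR3 are not listed in any group, and neither is IL20RA, so none of them was tested. LIFR, which pairs with IL6ST to bind LIF, fell by 0.97 ± 0.12 with VAV1 and by 0.75 ± 0.19 with RAC1 P29S, and rose by 0.55 ± 0.12 with saracatinib. OSMR, the oncostatin M receptor subunit, rose by 0.55 ± 0.05, 0.58 ± 0.05 and 0.55 ± 0.11 with VAV1, saracatinib and RAC1 P29S. IL1RL1, the receptor for IL33, rose by 1.56 ± 0.12 with VAV1 and by 3.57 ± 0.13 with RAC1 P29S. TNFRSF1B, a TNF receptor, fell by 1.68 ± 0.15 with VAV1 and by 1.15 ± 0.18 with RAC1 P29S, and rose by 1.21 ± 0.15 with saracatinib.

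Downstream of the IL6ST cytokines, 3 of 11 tested JAK, STAT3 and SOCS genes were higher and 3 lower with VAV1, 4 and 3 with saracatinib, and 3 and 2 with RAC1 P29S. STAT3 fell by 0.22 ± 0.06 with VAV1 and rose by 0.48 ± 0.06 with saracatinib. SOCS3, its feedback inhibitor, rose by 0.27 ± 0.08, 0.33 ± 0.08 and 0.24 ± 0.08 with VAV1, saracatinib and RAC1 P29S. PIM1, a kinase gene that STAT factors induce, rose by 0.64 ± 0.12 with VAV1 and fell by 1.2 ± 0.12 with saracatinib.

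Many cytokine messengers carry AU-rich elements that mark them for decay. Of 11 tested decay and stability factors, 4 were higher and 1 lower with VAV1, 2 and 4 with saracatinib, and 3 and 2 with RAC1 P29S. ZFP36, or tristetraprolin, which drives such decay, rose by 1.34 ± 0.10 with saracatinib (limma adjusted p = 2.06e-07) and was not called with VAV1 or RAC1 P29S. HNRNPD, or AUF1, fell by 0.54 ± 0.04 with saracatinib (limma adjusted p = 2.25e-07), and KHSRP fell by 0.43 ± 0.05. ZC3H12A, the RNase regnase-1, rose by 0.70 ± 0.23 with VAV1 and by 0.65 ± 0.18 with RAC1 P29S. Protein, secretion and messenger half-life were not measured in these libraries.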

How the data were processed

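Total RNA of 15 A375 libraries was sequenced after an Illumina TruSeq preparation, per the labels' protocols. The authors deposited log2 values, 1 per gene symbol, taken after adding 1 to a normalized count; kallisto, DESeq2 and the GRCh38 build are named in the submitters' processing notes, and their versions are not given in the sources used here. Whole reads were not recovered, so count tests and counting intervals were left out. Titles gave the groups. Genes reaching 10 normalized counts in 3 or more libraries entered limma 3.58.1 in R 4.3.3: 1 mean per group, empirical Bayes with trend and robust estimation, two-sided, Benjamini-Hochberg adjusted p under 0.05 over all tested genes. The 9 vehicle and saracatinib libraries shared 1 fit and the 6 untreated libraries another. Values after ± are SE. Per the design text the triplicates are biological, so p-values rest on the spread among these cultures. The 10 genes and the pathway lists were chosen with earlier results of these data known. Apart from the 10 genes, VAV1, RAC1, CXCL3 and CXCL8, list genes were named by rule: up to 4 per list with the smallest adjusted p and the 4 largest called changes, of which the text prints some. Exceptions chosen after their values were seen are RELA, IL1A and the marker genes. Likeness is Pearson r over 15 libraries, 3 genes for each of 3 members. Gene coordinates are from GENCODE 29 and promoters from RefSeq. Alternatives were other scalings, pseudocounts of 4 and 16, filters, other libraries in the fit, plain empirical Bayes, a block for replicate number, a limma test against 1.5-fold, and each library left out in turn. The fit was tested on simulated data.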

Additional observations from a re-analysis of the deposited data

Results flagged for a closer look

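For 6 of the 9 genes measured in both experiments, the response to VAV1 differed from the response to RAC1 P29S by a test of the difference itself (limma interaction over 15 libraries, adjusted p under 0.05 over 13810 genes, of which 8.14% were called higher and 7.7% lower). TNFAIP3 differed by 1.40, with a VAV1 response of 2.04 and a RAC1 P29S response of 0.64 that was not itself called. IL1B differed by 1.01 and IL24 by 0.62, in both cases with higher values under either construct and the larger response under VAV1. The IL1B call was lost in 19 of 25 alternative analyses. NFKBIA differed by 0.55: every VAV1 library lay above its empty vector libraries and every RAC1 P29S library below its own. Its RAC1 P29S response of -0.20 was not itself called. LIF differed by -0.64 and CXCL1 by -0.47, with values above the empty vector in every RAC1 P29S library and overlapping ranges with VAV1. The CXCL1 call was lost in 10 of 26 alternative analyses. None of the 6 differences was called in a limma test against a 1.5-fold change. Vehicle was given in 1 experiment only, so construct and experiment cannot be told apart in these differences.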

How the results depend on the processing

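Over 48 results for single genes, 999 alternative values were computed: 924 kept direction and side of the threshold, 53 lost the call, 18 gained it and 4 changed sign. The 4 sign changes were in values that were not called. Leaving out 1 library at a time gave CXCL1 with VAV1 a range of -0.04 to 0.13, CCL2 with VAV1 -0.06 to 0.43, and the CXCL2 difference of responses -0.09 to 0.38. A test against a 1.5-fold change left 2 genes higher and 0 lower with saracatinib, 0 lower for VAV1 with saracatinib against empty vector, 2 higher with RAC1 P29S, and 0 higher and 0 lower for the difference of responses; that test asks for larger changes by construction. Over all genes it called 567 higher and 604 lower with VAV1 (3399 and 2893 against 0), 364 and 124 with saracatinib (2632 and 2749), 564 and 333 for both together (3222 and 3026), 417 and 384 with RAC1 P29S (2194 and 2175), and 37 and 62 for the difference (1124 and 1064). Among the 9 genes measured in both experiments, the number with a lower response to VAV1 was 1 to 2 when 1 library was left out. Replicate numbers did not pair the libraries (residual correlations of -0.0547 to 0.0125 over 12 pairs). With a replicate block, IL1B with RAC1 P29S kept its difference of 1.05 and lost its call (adjusted p = 0.0526), TNFAIP3 with RAC1 P29S kept 0.64 and gained one (adjusted p = 0.0466), and no other call among the 10 genes changed. Plain empirical Bayes ended the IL11 call with saracatinib (0.38, adjusted p = 0.061) and gave calls for CXCL2 with saracatinib (0.76, adjusted p = 0.00922) and CCL2 with RAC1 P29S (0.62, adjusted p = 0.0138). Recomputed scalings moved the median over all genes by less than 0.1 in every comparison. The values hold no read counts, so depth per gene is unknown, and IL6, IL1B, CXCL2 and CCL2 are at levels where the pseudocount changes the size of a difference.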
